A study of Solanum lycopersicum with 36 samples.

Results

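In leaves of grafted tomato seedlings (GSs), 98 genes were already at a higher level before salt than in self-rooted, non-grafted seedlings (NGSs), and at 24, 48 and 96 h of salt their levels in the NGSs were above those at 0 h while those in the GSs had moved little from 0 h. They were chosen from the values themselves. Among the 20090 genes with a value of at least 1 FPKM (fragments per kilobase of gene and per unit of sequencing depth, as scaled by the authors) in at least 3 of 36 libraries, a member's mean in the GSs had to exceed that in the NGSs by at least 0.9 at 0 h on the scale log2(FPKM + 1). It also had to be at least 0.9 above its 0 h level in the NGSs at 24, 48 and 96 h, and within 0.75 of its 0 h level in the GSs at the same 3 times. The 98 genes made up 0.488% of the 20090, and the whole table held 32246 genes. Since the libraries of 0, 24, 48 and 96 h chose the genes, values at these times are given as a description, without a test. The libraries of 6 and 12 h were not used for the choice, and tests are given for them only.

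The plants were tomato (Solanum lycopersicum), from the salt-sensitive variety Zhongza 9 and the salt-tolerant rootstock variety QZ-006, with the GSs made by split grafting. Both types of seedlings stood in Hoagland's nutrient solution without added NaCl at 0 h (control) and then with 175 mM NaCl, sampled after 6, 12, 24, 48 or 96 h. Leaves were taken from each type at each time point as 3 biological replicates, which gave 12 groups. The NGSs were not grafted, so the rootstock and the grafting itself cannot be told apart. After 0 h there was no library of seedlings without salt, so that salt and the time that had passed cannot be told apart. The study's methods name 1 hour of the morning for sampling and do not say how time points of 6 and 12 h were fitted to it, and whether the hour of the day differed between them was not tested.

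Several of the 98 genes belong to the machinery that makes, moves and loads sugars and amino acids in a leaf. As background, sucrose is made in the mesophyll by sucrose-phosphate synthase and is carried into the phloem by sucrose/proton symporters of the SUT family, and these are driven by the proton gradient that plasma membrane H+-ATPases build up. Amino acid permeases use the same gradient. Others are known from defence or from senescence, and in senescence a leaf takes apart its own macromolecules and sends their nutrients to other organs. Only 15 of the 98 genes carry a symbol in the RefSeq annotation used for names, which holds no product descriptions, and the rest are named by their identifiers with no role given.

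The libraries held 15229645 to 26661418 reads on genes, and those of the NGSs at 0 h were the shallowest (15229645 to 18403175, against 20795796 to 25070006 in the GSs at 0 h). The FPKM values were already scaled between libraries, and the median of log2(FPKM + 1) over all genes tested was 3.05 to 3.18 in every library. The leaf genes RBCS4 and rbcS1, for the Rubisco small subunit, were at or above 2269 and 714 FPKM in every library. The chlorophyll a/b binding genes LOC101267774, CAB6A and LOC101253380 ranged from 85.7 to 5736, from 10.8 to 2802 and from 1.61 to 421 FPKM, while the fruit genes PG2, E8 and RIN and the pollen gene LAT52 stayed at or below 0.559 FPKM. In bulk leaf RNA, fewer cells of a type and less RNA per cell cannot be told apart. Some libraries stood apart from the others of their group in the 98 genes. In the GSs at 0 h, replicate 2 was the highest of the 3 libraries for 54 of the 98 genes (32.2% of all genes tested) and replicate 1 the lowest for 55 (35.5%). In the NGSs at 6 h, replicate 1 was the lowest for 77 (34.7%). Without replicate 2 of the GSs at 0 h, the same rule chose 68 genes, of which 54 were among the 98, and without replicate 1 it chose 140, of which 83 were. Counts of calls and medians over all 98 genes that rest on the 6 h libraries of the NGSs are also given below without replicate 1.

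As a group, the 98 genes showed the following course. The median of the members in a library was 2.81 to 3.13 in the NGSs at 0 h and 3.87 to 4.50 in the GSs at 0 h on the log2(FPKM + 1) scale, and no library of one type reached into the range of the other. By the choice of members, the median difference between the types was 1.19 at 0 h (range 0.90 to 3.52), while it was -0.02 over all genes tested. At 24, 48 and 96 h the median difference was -0.14, -0.38 and 0.10, so that the GSs had the lower mean for 63, 76 and 30 of the 98 genes. In the NGSs, the members lay above their 0 h level by a median of 1.46, 1.75 and 1.31 at 24, 48 and 96 h. Replicate 11 of the NGSs at 48 h was the highest library of all, at a median of 5.22.

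**Figure D1:**
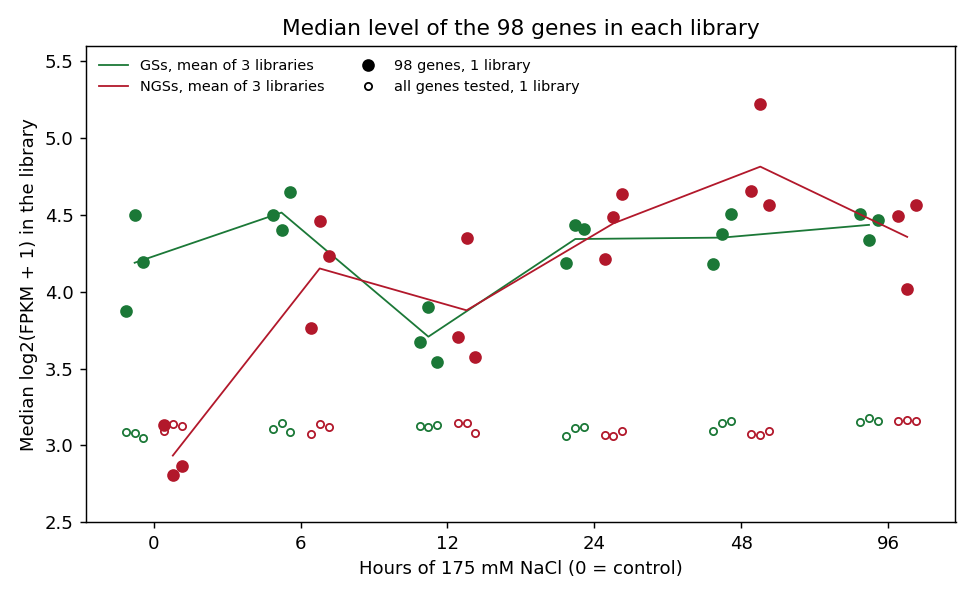
Median log2(FPKM + 1) of the 98 genes (filled points) and of all genes tested (open points) in each of the 36 libraries, by hours of 175 mM NaCl, with lines through the mean of the 3 libraries of a group. The NGS libraries at 0 h lie at 2.81 to 3.13, below every other library, and the medians of all genes tested stay between 3.05 and 3.18.

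Of the 12 groups, the NGSs at 0 h had the lowest mean for 79 of the 98 genes (80.6%), a group that was lowest for 16.7% of all genes tested. The rule itself put this group below the GSs at 0 h and below both types at 24, 48 and 96 h. Nothing is read from the share of 80.6%. The remaining members were lowest in the GSs at 12 h (9 genes), in the NGSs at 6 h (4) or 12 h (4) or in the GSs at 6 h (2). The group with the highest mean was most often the NGSs at 48 h (32 genes) or the GSs at 6 h (30 genes), followed by the NGSs at 24 h (13 genes), and it was never a 0 h group. At 0 h, all 3 GS libraries lay above all 3 NGS libraries for 86 of the 98 genes, where this was so for 15.6% of all genes tested, and the fitted difference was 1 or more with a false discovery rate (FDR) under 0.05 for 55 members (1.51% of all genes tested). The rule used these libraries, and nothing is read from either count. The libraries overlapped for the other 12 genes. At 24, 48 and 96 h the types did not overlap for 2, 2 and 5 members with the GSs higher (7.13%, 11.1% and 7.36% of all genes tested) and for 11, 12 and 2 with the GSs lower (6.37%, 8.55% and 4.13%).

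Values just inside the 0 h threshold were close to values just outside it. The members LOC112940015, LOC101254880 and LOC101247016 had differences of 0.903, 0.903 and 0.904. Outside it, LOC101251820 had 0.896, LOC101257914 had 0.885 and LOC101249992 had 0.885, and all 3 met the other parts of the rule. Without the part of the rule at 0 h, 176 genes met it, the 98 among them.

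The members with a known role included genes of sucrose synthesis and transport. LeSUT1 encodes the sucrose/proton symporter that loads sucrose into the phloem of tomato leaves, and it was the fifth most abundant member by mean FPKM. At 0 h its level was 202, 159 and 207 FPKM in the 3 GS libraries and 90.3, 53.9 and 51.6 FPKM in the 3 NGS libraries. Every GS library was thus above every NGS library, by 2.90-fold on the means. At 24, 48 and 96 h, LeSUT1 stood at 160.2 ± 38.8, 225 ± 35.1 and 129 ± 10.6 FPKM in the NGSs (SD, n = 3) and at 146 ± 45.6, 157 ± 15.6 and 156 ± 17.5 FPKM in the GSs. At 6 h, which the choice of genes did not use, the GSs had 325, 211 and 313 FPKM and the NGSs 230.5, 248 and 173 FPKM. These ranges overlapped, and the difference of 0.37 ± 0.25 (SE, log2) did not pass (limma, adjusted p = 0.390).

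SPS encodes sucrose-phosphate synthase, which makes the precursor of sucrose in the cytosol. Before salt, its level was 55.9, 45.2 and 62.4 FPKM in the GSs and 23.0, 14.5 and 15.7 FPKM in the NGSs, a 3.07-fold ratio of the means without overlap. In the GSs, SPS had 32.9, 27.1 and 44.4 FPKM at 6 h and 105, 63.3 and 81.9 FPKM at 12 h. The 12 h libraries were all higher, and the rise of 1.24 ± 0.26 passed (limma, adjusted p = 0.000768). In the NGSs the levels were 41.0, 42.6 and 77.0 FPKM at 6 h and 35.3, 82.7 and 62.8 FPKM at 12 h, which overlapped widely (change 0.15 ± 0.26, adjusted p = 0.819). The difference between the changes was 1.09 ± 0.37 and just missed the false discovery rate (FDR) of 0.05 (limma, adjusted p = 0.0514). PMT5 encodes a polyol and monosaccharide transporter. It had 103, 98.9 and 99.7 FPKM in the GSs and 54.6, 51.3 and 47.1 FPKM in the NGSs at 0 h and 109 ± 17.3, 103 ± 22.3 and 125 ± 20.5 FPKM in the NGSs at 24, 48 and 96 h.

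LHA4 and AAP2 encode a plasma membrane H+-ATPase and an amino acid permease. LHA4 had 176, 132 and 150.2 FPKM in the GSs and 71.2, 64.9 and 61.1 FPKM in the NGSs at 0 h, and 210.4 ± 44.2 and 301 ± 95.0 FPKM at 48 h. It was one of the members whose early levels in the GSs lay below their own 0 h level: the GSs had 70.4, 61.7 and 72.3 FPKM at 6 h, close to the 85.2, 75.5 and 59.5 FPKM of the NGSs (difference -0.09 ± 0.23, limma, adjusted p = 0.854). AAP2 had 40.5, 67.7 and 75.2 FPKM in the GSs and 27.5, 12.2 and 7.43 FPKM in the NGSs at 0 h. Its highest NGS library at 0 h was still below its lowest GS library, by 3.89-fold on the means and by 2.03 on the log2(FPKM + 1) scale. In the NGSs it had 47.3, 94.7 and 61.2 FPKM at 6 h, 203, 87.2 and 77.4 FPKM at 12 h and 135 ± 44.7 FPKM at 24 h, the last above the 60.4 ± 15.7 FPKM of the GSs. Neither at 6 h (0.23 ± 0.40, adjusted p = 0.780) nor at 12 h (-0.80 ± 0.40, adjusted p = 0.305) did the difference between the types pass.

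Transporters and channels with other substrates were also among the members. CNGC15 belongs to the cyclic nucleotide-gated channels, which let calcium and other cations through membranes in plant cells. It had 8.45, 26.7 and 14.3 FPKM in the GSs and 5.66, 6.06 and 4.24 FPKM in the NGSs at 0 h, and of the 15 genes with a symbol it was the only one called between the types at 6 h. There the GSs had 52.2, 52.9 and 41.8 FPKM and the NGSs 13.2, 31.7 and 13.51 FPKM. All GS libraries were higher, by 1.40 ± 0.44 (adjusted p = 0.0494), and from 6 to 12 h CNGC15 fell by 2.33 ± 0.44 in the GSs (adjusted p = 0.000273) to 8.63, 13.1 and 6.20 FPKM. The change in the NGSs was -0.20 ± 0.44, and the changes of the types differed (adjusted p = 0.0266). The call at 6 h was kept in 1 of 6 fits that left out a library, and the fall in the GSs in 6 of 6. The difference between the changes was kept in 4 of 12 such fits.

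ABCC9, an ATP-binding cassette transporter of subfamily C, had the second largest log2(FPKM + 1) difference of all members at 0 h (2.17), with 86.1, 150.5 and 100.3 FPKM in the GSs and 31.9, 19.9 and 20.4 FPKM in the NGSs. At 96 h both types were higher than that, at 169 ± 42.6 and 165 ± 55.6 FPKM. In between, ABCC9 fell in the GSs from 86.7, 112 and 82.7 FPKM at 6 h to 28.1, 30.5 and 24.6 FPKM at 12 h (-1.72 ± 0.41, adjusted p = 0.00210). The NGSs had 21.8, 58.8 and 58.4 FPKM at 6 h and 38.5, 73.9 and 26.5 FPKM at 12 h. The difference between the changes passed at -1.72 ± 0.58 (limma, adjusted p = 0.0481), and it was kept in 3 of 12 fits that left out a library. NRAMP3 encodes a metal transporter, which in Arabidopsis releases iron and manganese from the vacuole. Its 0 h levels were 56.5, 57.4 and 41.7 FPKM in the GSs and 26.0, 24.0 and 24.6 FPKM in the NGSs. It was never called between the types at 6 or 12 h (differences 0.13 and 0.04, adjusted p = 0.823 and 0.965).

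Genes known from senescence and defence formed another group, and in both of the first genes named here the GS libraries at 0 h lay far apart. NAP2 is a NAC transcription factor that promotes leaf senescence in tomato, and rnalx encodes the S-like ribonuclease LX, known from senescing and phosphate-starved leaves. NAP2 had 44.7, 199.6 and 163 FPKM in the GSs at 0 h, with replicate 1 far below the others, and 32.4, 37.1 and 34.2 FPKM in the NGSs. rnalx had 2.08, 25.3 and 3.96 FPKM in the GSs and 1.80, 2.82 and 1.34 FPKM in the NGSs, so that its higher mean in the GSs rested on replicate 2 and the types overlapped. Both fell in the GSs from 6 to 12 h. For NAP2, the levels went from 81.5, 63.6 and 76.4 to 14.5, 23.5 and 10.7 FPKM (-2.18 ± 0.46, adjusted p = 0.000799), and for rnalx from 29.9, 14.6 and 2.22 to 2.43, 1.01 and 0.460 FPKM (-2.42 ± 0.87, adjusted p = 0.0329, kept in 2 of 6 fits that left out a library). In the NGSs, NAP2 had 73.2, 116 and 99.1 FPKM at 6 h and 31.4, 39.3 and 35.3 FPKM at 12 h, and its change of -1.40 ± 0.46 missed the FDR of 0.05 (adjusted p = 0.0601).

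EDS1, a regulator of plant defence, had 18.2, 25.5 and 19.8 FPKM in the GSs and 10.3, 10.7 and 7.68 FPKM in the NGSs at 0 h. At 6 h the GSs had 51.2, 82.4 and 39.7 FPKM and the NGSs 14.9, 48.6 and 14.03 FPKM. Replicate 2 was high in both types, and the difference of 1.30 ± 0.52 did not pass (adjusted p = 0.115). The glutathione S-transferase gst, of a family that conjugates toxic compounds to glutathione, had 7.39, 24.4 and 18.3 FPKM in the GSs and 5.04, 5.92 and 7.09 FPKM in the NGSs at 0 h, and 19.6 ± 7.41 and 48.0 ± 16.8 FPKM at 24 h. CYP78A77 is a cytochrome P450. Its reads were few in the NGSs at 0 h (8, 4 and 0 reads in the 3 libraries, against 131, 90 and 55 in the GSs), and it stood at 3.52, 2.004 and 1.57 FPKM in the GSs and 0.269, 0.142 and 0 FPKM in the NGSs. At 96 h the types were at 3.09 ± 1.32 and 2.33 ± 0.529 FPKM.

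SP5G is a member of the FT family of flowering regulators and represses flowering in tomato, and BL3 is a BEL1-like homeodomain factor. SP5G had 29.2, 9.42 and 26.0 FPKM in the GSs and 6.53, 4.16 and 2.61 FPKM in the NGSs at 0 h, a 4.86-fold ratio of the means without overlap. At 6 h the order of the means was turned, with 8.51, 10.4 and 20.7 FPKM in the GSs and 21.7, 33.3 and 21.5 FPKM in the NGSs, yet the difference of -0.97 ± 0.59 did not pass (adjusted p = 0.329). BL3 had 27.3, 40.4 and 39.0 FPKM in the GSs and 16.6, 14.4 and 21.0 FPKM in the NGSs at 0 h, and 67.7 ± 18.7, 69.5 ± 30.4 and 52.9 ± 15.3 FPKM in the NGSs at the 3 later times. Across the 15 genes with a symbol, 1 was called between the types at 6 h and 0 at 12 h (limma, lowest adjusted p = 0.214). Of all genes tested, 1.99% were higher in the GSs at 6 h and 0.0448% were called at 12 h. In the GSs, 5 changed from 6 to 12 h. ABCC9, CNGC15, NAP2 and rnalx fell (6.55% of all genes tested) and SPS rose (9.08%). In the NGSs 0 changed (lowest adjusted p = 0.0601), where 2.96% of all genes tested fell and 1.19% rose. For 2, ABCC9 and CNGC15, the change was more negative in the GSs (3.34% of all genes tested). With 15 genes, nothing is read from these counts.

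**Figure D2:**
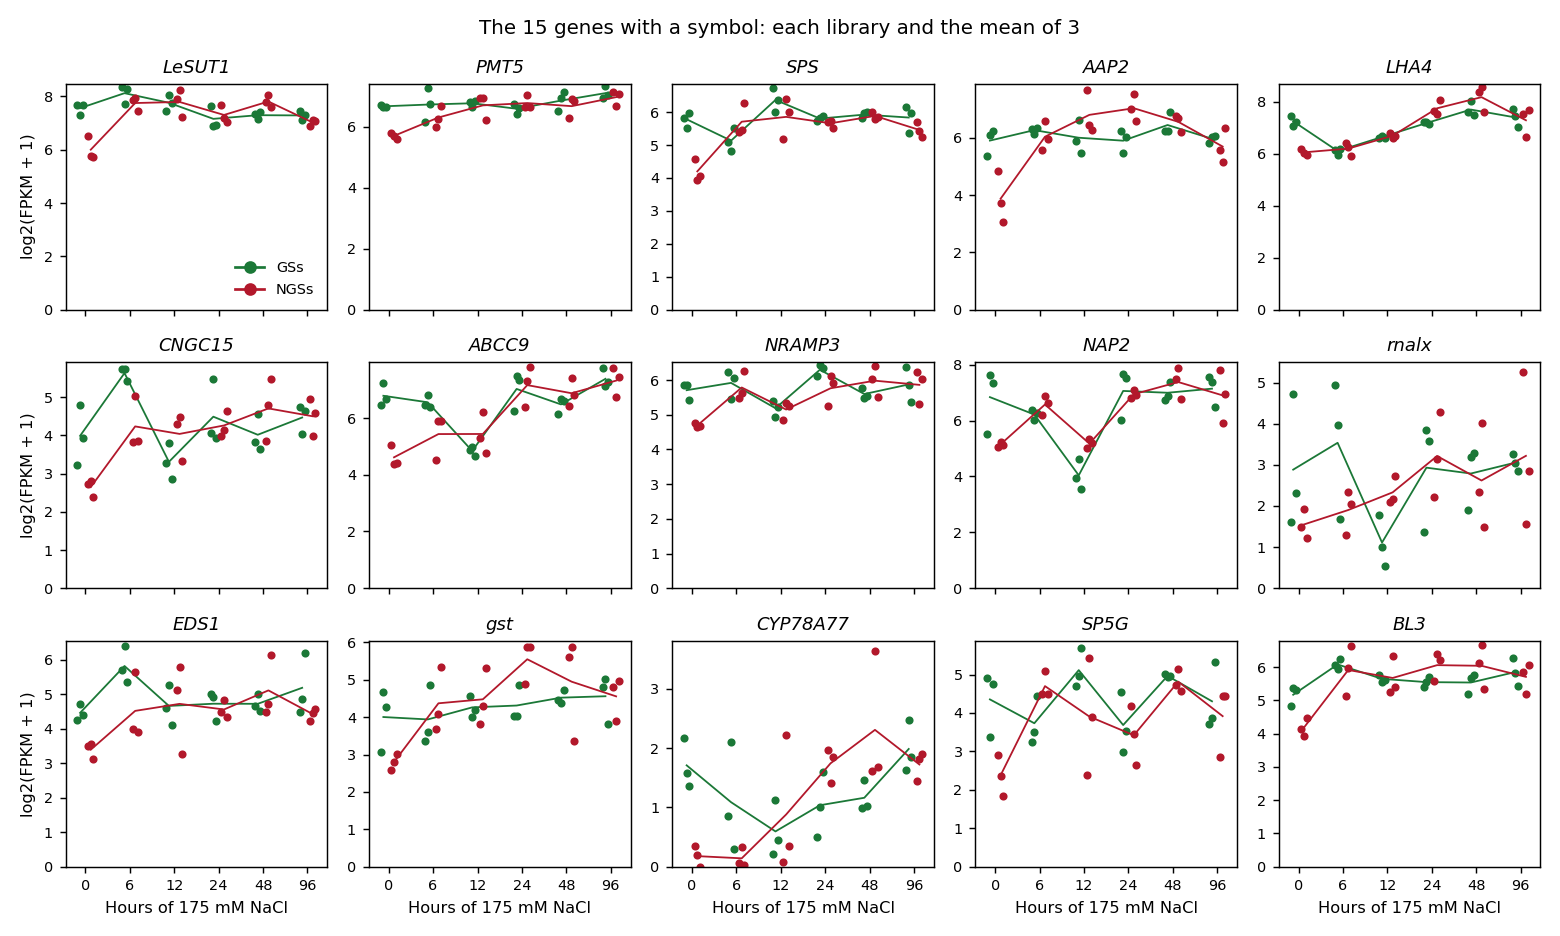
Level of the 15 genes with a symbol, as log2(FPKM + 1), by hours of 175 mM NaCl (0 = control), with each point 1 library and each line through the mean of 3 libraries, GSs in green and NGSs in red. At 0 h all green points lie above all red points in each gene except rnalx.

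The members with the largest differences at 0 h and those with the highest levels included genes without a symbol. LOC101266879 had the largest difference on the log2(FPKM + 1) scale (3.52), with 159.5, 726 and 249 FPKM in the GSs and 19.3, 28.1 and 31.7 FPKM in the NGSs. All GS libraries were higher, although they differed among themselves by more than the NGS libraries did. LOC101259182 had the highest mean over the 36 libraries (1383 FPKM) and stood at 1359.8, 775 and 1538 FPKM in the GSs and 607, 209 and 256 FPKM in the NGSs at 0 h. It reached 2543 ± 928 and 2482 ± 375 FPKM in the NGSs at 24 and 48 h, above the 1379 ± 598 and 1416 ± 207 FPKM of the GSs. From 6 to 12 h, LOC101259182 rose in the GSs from 838, 414 and 995 to 1451, 1702 and 1789 FPKM (1.22 ± 0.36, adjusted p = 0.00969), and with SPS it was 1 of 2 members that did so.

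Further members of these kinds differed in how tight their libraries were. LOC101251035 had 42.8, 40.0 and 40.0 FPKM in the GSs and 13.8, 11.7 and 8.96 FPKM in the NGSs at 0 h. LOC101247825 had 24.3, 21.9 and 26.7 and 6.19, 3.71 and 4.66 FPKM, and LOC101245287 had 12.2, 8.32 and 18.5 and 3.84, 1.23 and 4.39 FPKM in the same order. In each of these genes the lowest GS library was above the highest NGS library, and the GS libraries of LOC101251035 lay closest together. LOC544264 had 3.87, 31.0 and 6.72 FPKM in the GSs and 1.90, 2.01 and 2.37 FPKM in the NGSs, and LOC101245519 had 96.5, 371 and 141 and 55.8, 63.2 and 66.7 FPKM. LOC101261451, at 28.0, 117 and 48.2 FPKM in the GSs and 34.1, 22.2 and 26.1 FPKM in the NGSs, was one of the 12 members whose types overlapped. In these genes, replicate 2 of the GSs was the high library. Among the non-coding members, the long non-coding RNA LOC101249709 had 28.4, 54.0 and 65.7 FPKM in the GSs and 26.1, 10.8 and 8.41 FPKM in the NGSs, and the miscellaneous RNAs LOC101252777 and LOC101263239 followed LOC101259182 and LOC101266879 in abundance, with means of 360.2 and 202 FPKM over all libraries.

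The 98 genes were 88 protein-coding genes, 2 small nucleolar RNA genes, 2 miscellaneous RNA genes, 1 long non-coding RNA gene and 5 genes that the RefSeq table does not hold, of which 2 were defined from the reads by the authors. Of the members, 15.3% had a symbol, against 8.98% of all genes tested. Their median gene length in the table was 2218 bases (range 86 to 6470) and that of all genes tested 1639 bases. At 6 and 12 h the members had a median of 4.11 on the log2 scale and all genes tested 3.11. The middle member lay at the 69.4th percentile. The rule asked for a minimum difference at 0 h and a minimum rise in the NGSs, which genes with hardly any expression cannot meet. Nothing is therefore read from the higher level of the members, although the choice did not use these times. In the gene order of the RefSeq assembly SLM_r2.1, 0 pairs of members lay next to each other. There were 2 pairs within 5 genes (rnalx with LOC101250213, and LOC101247016 with LOC101268104). Over the 36 libraries the mean level of a member was 1.30 to 1383 FPKM (median 20.5), and the 60 members outside the naming rule lie within this range. At 0 h, 13 members had under 20 reads in an NGS library, and the small nucleolar RNA gene LOC112941431 and LOC109120711 were listed at 0 in all 3, a pair named here after its values were seen.

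**Figure D3:**
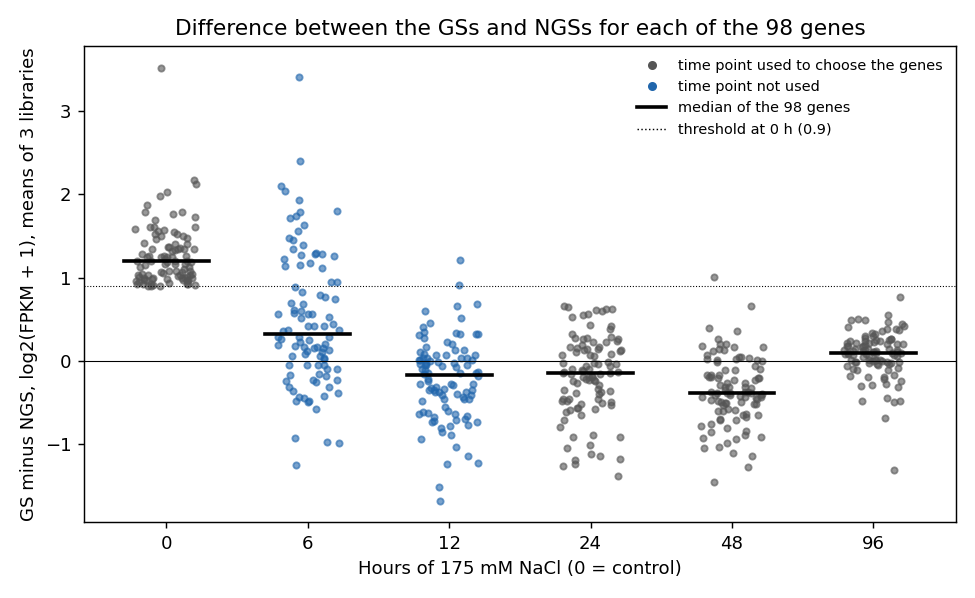
Difference between the GSs and NGSs in log2(FPKM + 1), as group means of 3 libraries, for each of the 98 genes at each time point, with bars at the median. The choice of genes puts all points at 0 h above 0.9, and the medians at 6 and 12 h, which it did not use, are 0.32 and -0.17.

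At 6 h of salt, a group of the members was still higher in the GSs. The median difference over the 98 genes was 0.32 (range -1.25 to 3.41, -0.02 over all genes tested), with 70 genes higher and 28 lower. Without replicate 1 of the NGSs the median was 0.20. Calls were made in limma with an FDR under 0.05 over all 20090 genes and a log2 change of 1 or more in size. By these limits, 13 members (13.3%) were higher in the GSs, where 1.99% of all genes tested were, and 1 was lower, where 2.41% were. The libraries of the types did not overlap for 26 members that were higher in the GSs (13.1% of all genes tested) and for 6 that were lower (15.7%). With all libraries, the members thus exceeded the background share on the higher side and fell short of it on the lower side. Without replicate 1 of the NGSs, 0 members were called in either direction, where 80 of all genes tested were higher and 142 lower. The excess of calls on the higher side thus rested on that library.

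LOC101266879 again had the largest difference at 6 h, with 4918, 2335 and 2299.6 FPKM in the GSs and 45.5, 1821 and 258 FPKM in the NGSs. All GS libraries were higher (3.41 ± 1.06, adjusted p = 0.0440), but the NGS libraries spanned a wide range, with replicate 2 near the GSs. The same order held in LOC101267635, with 19.6, 15.6 and 13.7 FPKM in the GSs and 0.352, 9.69 and 1.35 FPKM in the NGSs (2.40 ± 0.49, adjusted p = 0.00459). LOC101245813 had 18.4, 12.9 and 13.2 and 0.523, 11.6 and 1.55 FPKM (2.10 ± 0.56, adjusted p = 0.0207). LOC101248848 was higher by 1.94 ± 0.41 (16.7, 15.9 and 11.01 against 1.46, 5.39 and 3.06 FPKM), and LOC104648558 by 1.80 ± 0.37 (10.7, 9.94 and 8.25 against 0.574, 6.17 and 1.49 FPKM). LOC101267635, LOC101248848 and LOC104648558 kept their call in 5 of the 6 fits that left out a library, more than the other 11 called members.

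The remaining called members that were higher in the GSs had differences of 1.22 to 1.78. They were LOC101268104 (1.78), LOC101250358 (1.74), LOC100316887 (1.56), LOC101243709 (1.48), LOC101246027 (1.45), CNGC15 (1.40), LOC101260422 (1.29) and LOC101259643 (1.22), the last 2 named after their values were seen, as was LOC101250213. For all 13 genes the lowest of the 6 libraries was replicate 1 of the NGSs and the highest NGS library was replicate 2, and the types did not overlap for 12. LOC101250213 was the member that was lower in the GSs, with 3.43, 7.35 and 5.88 FPKM in the GSs and 13.7, 12.4 and 16.4 FPKM in the NGSs (-1.25 ± 0.31, adjusted p = 0.0156). Its level at 6 h was far below that at 0 h in both types (87.5 ± 24.8 and 41.2 ± 7.93 FPKM).

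**Figure D4:**
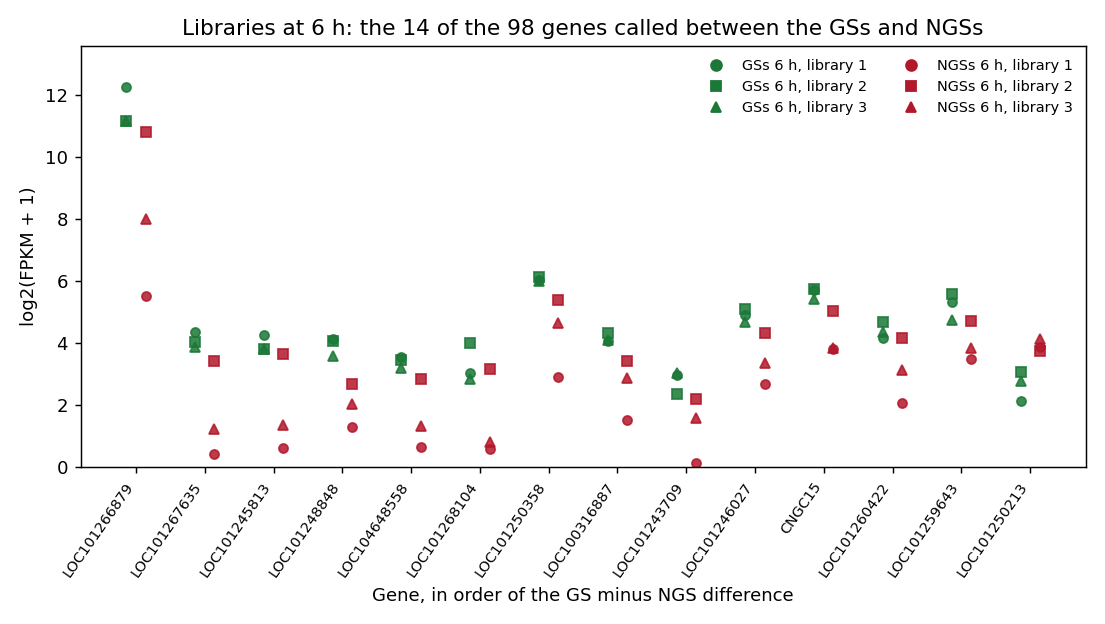
Level at 6 h, as log2(FPKM + 1), of the 14 members called between the GSs (green) and NGSs (red), with each point 1 library and its shape the replicate number, in order of the difference. In the 13 genes that were higher in the GSs, NGS replicate 1 (red circles) is the lowest point, and only LOC101250213 has red points above all green ones.

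The count at 6 h depended on single libraries and on the fit. Without replicate 1 of the NGSs it was 0 in place of 14 (17 members had an unadjusted p under 0.05), without replicate 2 of the NGSs 23, without replicate 3 of the NGSs 5, and without replicate 1 or 2 of the GSs 3 or 4. In a fit of only the 6 libraries compared, 0 members and 0 of all genes passed, with 35 members and 4450 genes at an unadjusted p under 0.05, and with the replicate numbers added as a replicate block, these were 0, 0, 40 and 5377. The replicate block in the fit of all 36 libraries gave 15 higher and 1 lower members. A planned count test with edgeR on the recovered reads called far fewer members than limma at 6 h, and its count is not given because the values were deposited as FPKM. At 6 h, same-numbered libraries of the types had correlated deviations, though at other times some libraries of different numbers did too.

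Beside these genes, lists of genes with a symbol moved at 6 h as follows. Of 15 chlorophyll a/b binding genes, 13 were lower and 0 higher in the GSs, and of 14 WRKY factors 4 were higher and 0 lower. Of 9 pathogenesis-related and chitinase genes, 3 were higher and 0 lower. Of all genes tested, 1.99% were higher and 2.41% lower. From 6 to 12 h, 8 of the 9 pathogenesis-related and chitinase genes fell in the GSs and 0 in the NGSs, where 6.55% and 2.96% of all genes tested did. All 15 chlorophyll a/b binding genes fell in the NGSs and 1 in the GSs. None of these genes was a member, and their part in the results of the 98 genes was not tested.

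At 12 h the difference seen before salt was not found. The median difference was -0.17 (range -1.67 to 1.21), with 32 genes higher and 66 lower in the GSs. No member passed in limma (0 of 98, lowest adjusted p = 0.204), where 0.0448% of all genes tested did, and 6 members had an unadjusted p under 0.05. With limma and voom weights on the recovered reads, chosen after seeing the data, 0 members passed and 8 had an unadjusted p under 0.05. No overlap of the libraries was found for 13 members that were lower in the GSs (9.43% of all genes tested) and for 0 that were higher (11.5%). With the library totals as the scale, the median of all genes tested moved by -0.16 at 12 h, and that of the members was -0.34.

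Between 6 and 12 h, 30 of the 98 genes fell in the GSs and 6 in the NGSs. In the GSs, 30 members (30.6%) were downregulated at 12 h against 6 h, where 6.55% of all genes tested were, and 2 (2.04%) were upregulated, where 9.08% were. The median change was -0.64 over the 98 genes and -0.02 over all genes tested. In the NGSs, 6 members (6.12%) were downregulated, where 2.96% of all genes tested were, and 0 were upregulated, where 1.19% were, with a median change of -0.08. Without replicate 1 of the NGSs at 6 h, 4 were downregulated in the NGSs and the median change was -0.33. The largest fall in the NGSs was that of LOC101245287, from 43.9, 21.5 and 21.7 FPKM at 6 h to 6.78, 7.36 and 5.32 FPKM at 12 h (-1.93 ± 0.53, adjusted p = 0.0199). Only 1 gene was downregulated in both, LOC101248108 (named after its values were seen). Of the 30 genes that fell in the GSs, 29 had no overlap between the 6 and 12 h libraries, 18 had their highest group mean in the GSs at 6 h, and 24 were lower at 12 h than at 0 h on the group means. Their changes were -3.67 to -1.06 (median -1.81), and the median change of the same genes in the NGSs was -0.02. These genes were chosen for their fall in the GSs. Their median in the NGSs was not taken without replicate 1 of the NGSs at 6 h.

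The largest falls in the GSs were those of LOC101266879, LOC544264, LOC101255316 and LOC101267635. LOC101266879 went from 4918, 2335 and 2299.6 FPKM at 6 h to 181, 612 and 114 FPKM at 12 h (-3.67 ± 1.06, adjusted p = 0.00919). LOC544264 went from 79.9, 62.3 and 92.5 to 6.63, 13.4 and 5.87 FPKM (-3.10 ± 0.57, adjusted p = 0.000182), and LOC101267635 from 19.6, 15.6 and 13.7 to 0.867, 1.63 and 0.817 FPKM (-3.05 ± 0.49, adjusted p = 3.98e-05). In each of them every 12 h library was below every 6 h library. LOC101255316, chosen for its change after its values were seen, went from 44.9, 60.6 and 28.3 to 6.19, 5.41 and 2.08 FPKM (-3.06 ± 0.67, adjusted p = 0.000989). Of the 13 members higher in the GSs at 6 h, 11 were among these 30 (84.6% of the 13 and 36.7% of the 30), and both comparisons share the GS libraries of 6 h. In fits that left out 1 library, 24 to 31 members fell in the GSs, and in the other fits 30 to 39.

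The difference between the changes of the types was tested as an interaction, which shares its 6 and 12 h libraries with the comparisons above. It passed for 18 members, 17 (17.3%) with a more negative change in the GSs, where 3.34% of all genes tested had one, and 1 (1.02%) with a more positive change, where 6.75% had one. LOC101266879 had the largest (-4.92 ± 1.497, adjusted p = 0.0306), with a change of 1.25 in the NGSs that did not pass (adjusted p = 0.555). LOC101255316 (-3.71), LOC101267635 (-3.25), LOC101245813 (-2.78), LOC101248848 (-2.72) and LOC101250358 (-2.67) followed. The 1 with a more positive change was LOC101250213 (1.42 ± 0.44, adjusted p = 0.0347), which fell in the NGSs from 13.7, 12.4 and 16.4 to 2.59, 6.55 and 10.7 FPKM. Of the 17, 15 fell in the GSs. Without replicate 1 of the NGSs at 6 h, 3 members were left, all negative, and with the library totals as the scale, which moved the median of all genes by -0.25, there were 29 negative and 0 positive.

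**Figure D5:**
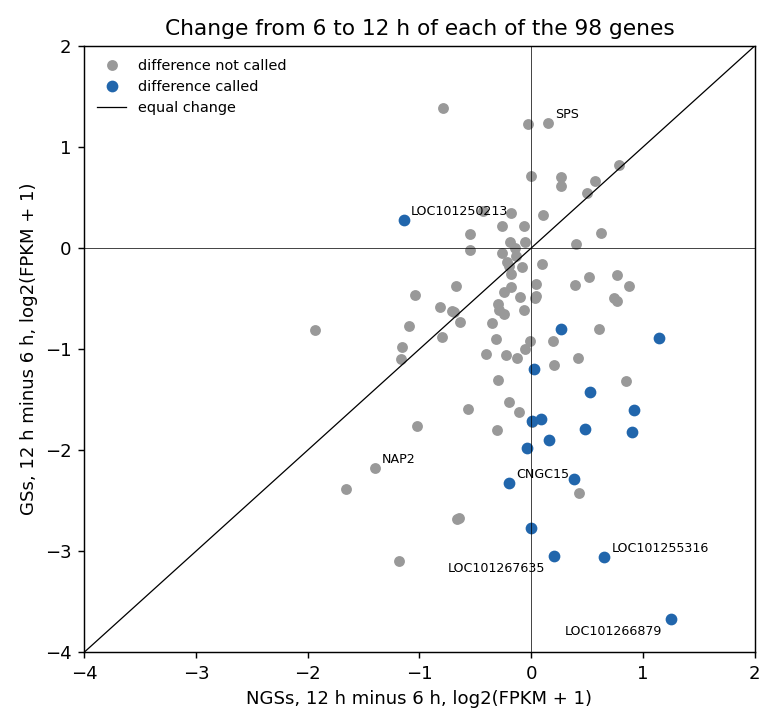
Change from 6 to 12 h in log2(FPKM + 1) of each of the 98 genes, in the NGSs on the horizontal and in the GSs on the vertical axis, with the 18 members whose changes differed between the types in blue and the line of equal change drawn. Of the blue points, 17 lie below the line and 1, LOC101250213, above it.

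Members were also counted in gene families that could be found by symbol. The 19 lists taken by words in the symbols held 304 genes tested, and 4 of these were members: NAP2 among 7 NAC factors, gst among 3 glutathione S-transferases, CYP78A77 among 26 cytochromes P450 and ABCC9 among 67 ABC transporters. No member was a WRKY, ethylene-responsive, bHLH, MYB, bZIP, JAZ, auxin-related, XTH, expansin, heat shock, pathogenesis-related, peroxidase, aquaporin, chlorophyll a/b binding or clock gene on these lists. The NAC factors had a median difference of 1.11 between the types at 0 h, and 4 of the 7 were at or above 0.9, where 3.88% of all genes tested were. Besides NAP2 these were NAC1, NAC4 and NAP1, which missed other parts of the rule. The same threshold was reached by 5 of 9 pathogenesis-related and chitinase genes and 4 of 14 WRKY factors, none of them members. From 6 to 12 h, 2 of the 7 NAC factors fell in the GSs (NAP1 and NAP2) and 0 in the NGSs, where 6.55% and 2.96% of all genes tested did.

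Genes with a symbol that belong to the family of a member, or were set beside it by role, were looked at in 10 lists. These held 52 genes tested, members included, and were chosen after the members were known. Relatives without a symbol were not looked at. Of the 41 that were not members, 3 were at or above 0.9 at 0 h: the sugar transporter STP11 (1.64) and the ABC transporters ABCC1 (1.04) and ABCC5 (1.34). LHA1 and LHA2, the other plasma membrane H+-ATPases on these lists, had differences of 0.09 and 0.63 at 0 h, where LHA4 had 1.197. The sucrose transporters SUT2 and SUT4 had 0.11 and 0.72, where LeSUT1 had 1.56, and the amino acid permeases AAP1 and AAP3 had 0.83 and -0.56, where AAP2 had 2.03. The rule set the values of the members, and nothing is read from their order. At 6 h, 2 of the 18 sugar transporters (HT1 and PMT6) were higher in the GSs and 0 lower (1.99% and 2.41% of all genes tested). From 6 to 12 h, 2 of them rose and 4 fell in the GSs (9.08% and 6.55% of all genes tested). In the NGSs, 0 rose and 2 fell (1.19% and 2.96%). LeSUT1 and PMT5, the members on this list, were not called in any of these.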

How the data were processed

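Leaf RNA was sequenced from 36 libraries, 3 per group, grouped by their titles into 2 seedling types and 6 time points. According to the submitters' processing notes, reads were handled with HISAT2 2.0.5, featureCounts 1.5.0-p3, DESeq2 1.16.1 and STAR-Fusion 1.2.0. The authors deposited 1 table of FPKM values for 32246 genes, with 0 columns left unassigned and no columns of their own comparisons used. The FPKM unit was taken from the values: 100% of the values above 0 gave back whole reads (tolerance 0.02), and the denominators matched size factors from 18964 genes, so that the deposited FPKM values were already scaled between libraries by medians of ratios. Recovered reads were 15229645 to 26661418 per library (median 22755231), which is 75.0% to 126% of the denominators.

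Values were taken as log2(FPKM + 1), for genes with at least 1 FPKM in at least 3 libraries. limma 3.58.1 (trended, R 4.3.3) was fitted to all 36 libraries as 12 group means, and p-values were adjusted by Benjamini and Hochberg over 20090 genes. Genes were called at an FDR under 0.05 where the log2 change was 1 or more in size. Errors of differences are SEs of this fit, and those of levels are SDs of 3 libraries. Tables and plots were made with Python 3.11.15, NumPy 2.4.6, pandas 2.3.3 and matplotlib 3.10.9. The p-values rest on 1 spread per gene, pooled over the libraries within all 12 groups and drawn towards that of genes at a like level. They do not measure the spread of the groups compared alone. The median SD of the members on the log2(FPKM + 1) scale was 0.50 in the NGSs and 0.27 in the GSs at 6 h. On simulated data, 26514 of 27026 genes (98.1%) had every read count recovered. For the comparison at 6 h, 20090 genes were simulated, and limma found 153 of the 200 (76.5%) that were changed by 2 on the log2 scale. It made 5 false calls among the unchanged genes. These libraries were drawn independently, with the same dispersion for all genes. None was made to stand apart as replicate 1 of the NGSs at 6 h did, so the simulation does not show how such a library acts on the calls.

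The members and lists were chosen with earlier results of these data known. The genes named were all members with a symbol, the 10 with the largest difference at 0 h, the 10 with the highest mean FPKM, up to 10 called between the types at 6 or 12 h, and the 3 nearest to the 0 h threshold on each side. Names came from the RefSeq table of assembly SLM_r2.1, which held 93 of the 98 genes. It has no product names, so lists that need one were not counted.

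The replicate numbers in the labels were checked for pairing. At 6 h, libraries of the same number had correlated deviations (0.124, 0.411 and 0.428), all above the 0.1 set for pairing, while at 12 h not all were (-0.097, 0.233 and 0.458). Between different numbers the correlations were -0.451 to 0.072 at 6 h, but reached 0.2995 at 12 h and 0.6445 at 96 h. At 96 h, libraries of the same number had 0.427, -0.394 and -0.264. Whether the numbers mark pairs cannot be told from these values. The fit had no block, and the blocked value is given beside the count at 6 h. No block was fitted for the changes from 6 to 12 h, whose libraries share no numbers. Alternatives were a replicate block, another pseudocount, other filters, library totals as the scale, only the libraries compared, the FDR alone, limma with voom weights on the recovered reads (chosen after seeing the data), and each library left out in turn. The planned count test with edgeR is not reported, since the values were deposited as FPKM.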

Additional observations from a re-analysis of the deposited data

Results flagged for a closer look

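For 18 of the 98 genes, the change from 6 to 12 h differed between the GSs and NGSs by the interaction test. Among the genes named by the rule, the change in the GSs minus that in the NGSs, on the log2 scale, was -4.92 for LOC101266879, -3.25 for LOC101267635, -2.78 for LOC101245813, -2.72 for LOC101248848 and -2.67 for LOC101250358. It was -2.26 for LOC100316887, -2.13 for CNGC15, -2.06 for LOC101246027, -1.95 for LOC104648558, -1.94 for LOC101243709 and -1.72 for ABCC9. All 11 had a lower change in the GSs. The same 6 h libraries of the GSs enter the difference between the types at 6 h, and 3 of the 18 genes passed without replicate 1 of the NGSs at 6 h.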

How the results depend on the processing

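Of the 98 genes, 14 were called between the types at 6 h, against 0 in a fit of only the libraries compared and 0 to 23 with 1 library left out. With the replicate block, 0 were called among only the libraries compared and 16 in the fit of all 36 libraries (chosen after seeing the data). The planned count test with edgeR was tried and called far fewer members at 6 h than these 14, but its count is not given, because the values were deposited as FPKM. The block left the count at 12 h at 0. No alternative gave a call at 12 h. From 6 to 12 h, the 6 members called in the NGSs became 2 with only the libraries compared, 2 to 9 with 1 library left out (2 without replicate 3 of the NGSs at 6 h, 3 without replicate 4 at 12 h), and 3 higher and 2 lower with library totals as the scale. The 32 called in the GSs were 26 to 33 with 1 library left out. The 18 interaction calls became 4 with only the libraries compared, 29 with library totals, and 3 to 27 with 1 library left out (3 without replicate 1 of the NGSs at 6 h, 11 without replicate 1 or 2 of the GSs at 6 h, 8 without replicate 6 of the GSs or replicate 4 of the NGSs at 12 h). Of all genes at 6 h, the GSs were higher for 399 and lower for 484, against 554 and 374 with library totals. For the NGSs from 6 to 12 h these were 240 and 594, against 695 and 382 with library totals, and for the interaction 1357 and 671, against 978 and 1496. The rule itself chose 210 genes with a pseudocount of 0.1 (89 of the 98 among them), 162 and 50 with looser and stricter thresholds, and 68 to 140 with 1 library left out, where 133 came without replicate 1 of the NGSs at 0 h. For the named genes, 136 values lost their call and 34 gained one, while 2680 kept their call or stayed without one. Among values called in either fit, 0 turned their direction. Directions were not compared where neither fit made a call. Low reads in the NGSs at 0 h limit the 13 members under 20 reads.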

Other observations

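With the directions of the rule turned (lower in the GSs at 0 h and lower in the NGSs under salt than at 0 h), 300 genes met it. With the seedling types swapped, 25 genes met the rule and 10 its turned form. These counts were added after seeing the data and have no test. Before any threshold on the changes under salt, the GSs exceeded the NGSs by at least 0.9 at 0 h for 780 genes and the NGSs exceeded the GSs by as much for 1398.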
